A study of Caenorhabditis elegans with 32 samples.

Results

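The interaction between *pgph-2* overexpression and glucose was examined in animals with an intact *hlh-30* gene. For every gene, the difference of *pgph-2 o/e* from WT on normal growth medium (NGM) was subtracted from that on NGM with 2% glucose, on the log2 scale. All 16 libraries of the 2 genotypes entered, out of 32 in the series. They were made from whole synchronized animals that the labels place at the L4 or young adult stage, with 4 libraries per genotype and medium. WT was the N2 Bristol strain. The *pgph-2 o/e* strain carries an integrated transgene of *pgph-2* under its own promoter and a *myo-2p::mCherry* marker, which WT lacks, and it is 1 line, so the effects of the transgene, the marker and the integration cannot be told apart. The other 16 libraries were of *hlh-30* mutants with and without the same transgene on both media. They were used to test whether the interaction differed without *hlh-30*, and in an alternative fit of all 32 libraries.

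PGPH-2 is a phosphatase that turns glycerol-3-phosphate into glycerol, which draws carbon away from fat synthesis when glucose is in excess. HLH-30 is the worm ortholog of TFEB, a transcription factor of lysosome and autophagy genes. In the hermaphrodite, the germ line makes sperm in the last larval stage and then switches to oocytes, the intestine of the adult makes yolk proteins for these oocytes, and each molt is followed by a cuticle built from its own set of collagens, so that transcripts of sperm, oocytes, yolk and collagens follow both cell number and age.

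The deposited values are counts of reads per gene, and 15816 of 46589 genes had enough counts to be tested. Library totals ranged from 17036463 to 25673318. *pgph-2* (chromosome V, 5770455 to 5771767 in WBcel235) was measured at 43.7, 39, 35.5 and 29.6 CPM (counts scaled to library size with TMM factors) in WT on NGM. It was at 85.9, 63.5, 59.8 and 65.5 CPM in *pgph-2 o/e* on NGM. On glucose, WT ranged from 62.5 to 75.3 CPM and *pgph-2 o/e* from 107 to 142 CPM, so the genotypes did not overlap on either medium. The log2 difference was 0.89 on NGM and 0.86 on glucose, and the interaction of *pgph-2* itself was -0.03 (SE 0.18, adjusted P = 0.925). *hlh-30* likewise had an interaction of 0.13 (adjusted P = 0.537).

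Some libraries stood apart from their group. *pgph-2 o/e* replicate 1 on NGM had a TMM scaling factor of 0.788, against 0.953 to 1.058 in the other 15, and lay at 79.2 on the second principal component (16.2% of the variance), against 28.6 to 46.3 in the rest of its group. WT replicate 1 on NGM was the WT library on NGM with the most sperm and oocyte transcripts. On glucose, WT replicates 2 and 4 had more of these transcripts than replicates 1 and 3. The first principal component (47.2%) placed the 4 *pgph-2 o/e* glucose libraries between 64.5 and 105, and the other 12 between -57.5 and -1.79. The counts of genes called on NGM or reversing are therefore also given without replicate 1 of a genotype where that moved them most.

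The genotype difference changed with the medium for many genes, most of them lowest in *pgph-2 o/e* animals on glucose. With edgeR's quasi-likelihood test, 992 genes had an interaction above 0 (6.27% of the genes tested) and 2239 below 0 (14.2%), when a call required a Benjamini-Hochberg adjusted P of 0.05 or less and a log2 value of 1 or more in size. An interaction below 0 means that *pgph-2 o/e* stood lower against WT on glucose than on NGM. Of the 2239, 2111 had their lowest group mean in *pgph-2 o/e* on glucose, while 1154 had their highest in WT on glucose and 1061 in *pgph-2 o/e* on NGM. Of the 992, 905 had their highest group mean in *pgph-2 o/e* on glucose and 571 their lowest in *pgph-2 o/e* on NGM. These orders are partly set by the call. A value below 0 favors a lowest mean in *pgph-2 o/e* on glucose or WT on NGM, and one above 0 a highest mean there. WT on NGM was the lowest for 117 of the 2239 and the highest for 83 of the 992. The median interaction of all genes tested was 0.02.

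The sperm transcripts moved with this pattern across libraries. The mean log2 CPM of the *msp*, *ssp*, *ssq* and *nspd* genes was 1.44 to 3.07 in *pgph-2 o/e* on glucose and 3.99 to 5.56 in the other 12 libraries. With that mean as a covariate in edgeR, 0 genes passed for the interaction. An unadjusted P under 0.05 was found for 897 of 15816 genes, against 6794 without the covariate. By chance alone a share of 0.05 would fall under that limit. Since 87.5% of the variance of the mean lay between the 4 groups, that fit can hardly separate the interaction from the sperm transcripts, and the median standard error rose from 0.27 to 0.56.

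A reversal needs a genotype difference called on each medium in opposite directions, and the difference on NGM and that on glucose share no library. *pgph-2 o/e* was higher than WT for 283 genes on NGM (1.79%) and lower for 268 (1.69%). On glucose it was higher for 848 genes (5.36%) and lower for 2233 (14.1%). Of the genes tested, 95 were up on NGM and down on glucose (0.601%), and 17 were down on NGM and up on glucose (0.107%). A further 61 were up on both media and 172 down on both. The counts of reversing genes depended on which NGM libraries were used. Without WT replicate 1 on NGM, 212 and 49 genes reversed, without *pgph-2 o/e* replicate 1 on NGM 44 and 13, and without both 122 and 47. Leaving out WT replicate 2, 3 or 4 or *pgph-2 o/e* replicate 4 on NGM also lowered the first count, to 45, 56, 48 and 59, and WT replicate 3 or 4 or *pgph-2 o/e* replicate 4 the second, to 6, 10 and 10. The libraries of the 2 genotypes did not overlap on either medium for 78 of the 95 and 13 of the 17, which is largely set by how these genes were chosen. Over all 15816 genes tested, 574 (3.63%) lay apart on both media as up then down. In the other direction 252 (1.59%) did.

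**Figure D1:**
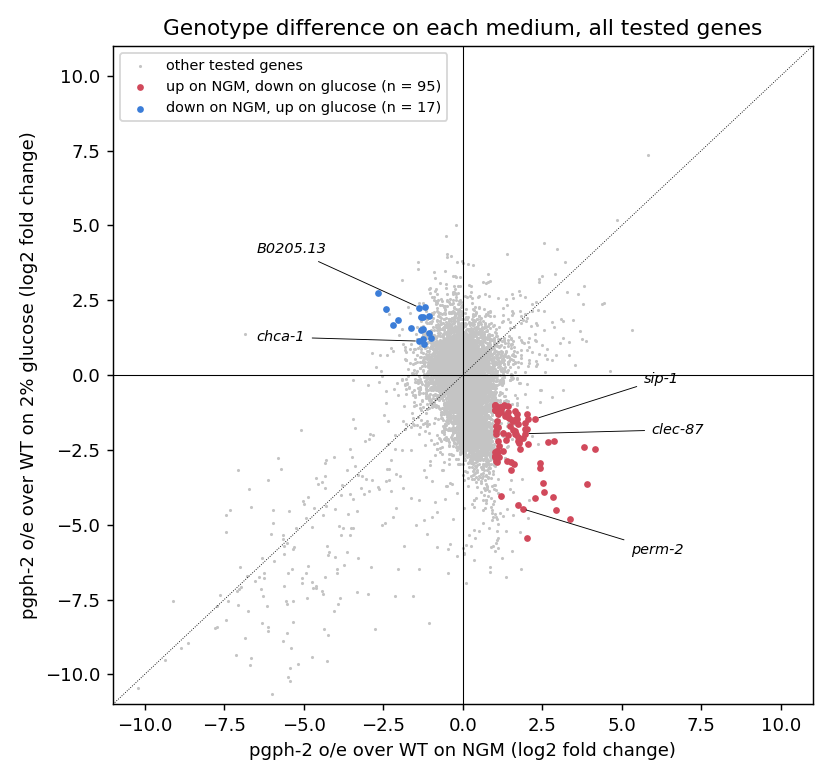
Each point is 1 of the 15816 genes tested. The horizontal axis is the log2 fold change on NGM of *pgph-2 o/e* over WT, the vertical axis that on 2% glucose, and the dotted line marks equal values. The 95 genes called up on NGM and down on glucose (red) fill the lower right, the 17 in the other direction (blue) the upper left, and genes far down the lower left are lower in *pgph-2 o/e* on both media.

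Genes of growing oocytes and early embryos were the clearest function to reverse. Of 35 such genes tested, 20 were up in *pgph-2 o/e* on NGM, 18 were down on glucose and 17 were both, and 31 had an interaction below 0 and 0 above. The list's median log2 difference was 1.15 on NGM and -1.01 on glucose, against 0.02 and 0.03 for all genes. The 17 were the eggshell and permeability barrier genes *perm-2*, *perm-4*, *cpg-1*, *cpg-2* and *cpg-3*, the egg surface genes *egg-1*, *egg-4* and *egg-5*, the yolk receptor gene *rme-2*, the RNA-binding protein genes *puf-5*, *puf-11*, *pos-1*, *mex-1*, *mex-5*, *mex-6* and *nos-2*, and *cey-2*. Without WT replicate 1 on NGM 17 of the list reversed, and without *pgph-2 o/e* replicate 1 on NGM 14 did. In whole animals, fewer oocytes and less RNA per oocyte cannot be told apart.

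*perm-2* encodes a component of the permeability barrier of the eggshell and lies on chromosome IV (1126791 to 1128848). It was at 10.2, 5.54, 7.63 and 4.53 CPM in WT on NGM and at 32.2, 24.5, 23.2 and 24 CPM in *pgph-2 o/e* on NGM. On glucose it was at 9.57, 41.2, 12.6 and 31.7 CPM in WT and at 0.809, 0.715, 1.02 and 1.67 CPM with the transgene. The *pgph-2 o/e* animals were thus above every WT library on NGM and below every WT library on glucose. The difference was 1.89 on NGM (adjusted P = 0.00387) and -4.47 on glucose (adjusted P = 2.63e-06), and the interaction was -6.36 (SE 0.59, adjusted P = 4.34e-06). *perm-4*, which acts with *perm-2* and lies close to it (1121457 to 1125283), had differences of 1.74 and -4.34 and an interaction of -6.08. *puf-5*, a translational repressor of oocytes on chromosome II (8575541 to 8577722), ranged on NGM from 7.49 to 16.1 CPM in WT and from 32 to 54 CPM in *pgph-2 o/e*. Its ranges on glucose were 13.4 to 40.8 CPM in WT and 3.57 to 7.21 CPM in the overexpressing animals. Its groups did not overlap on either medium, and its interaction was -4.03 (SE 0.54, adjusted P = 3.7e-05).

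**Figure D2:**
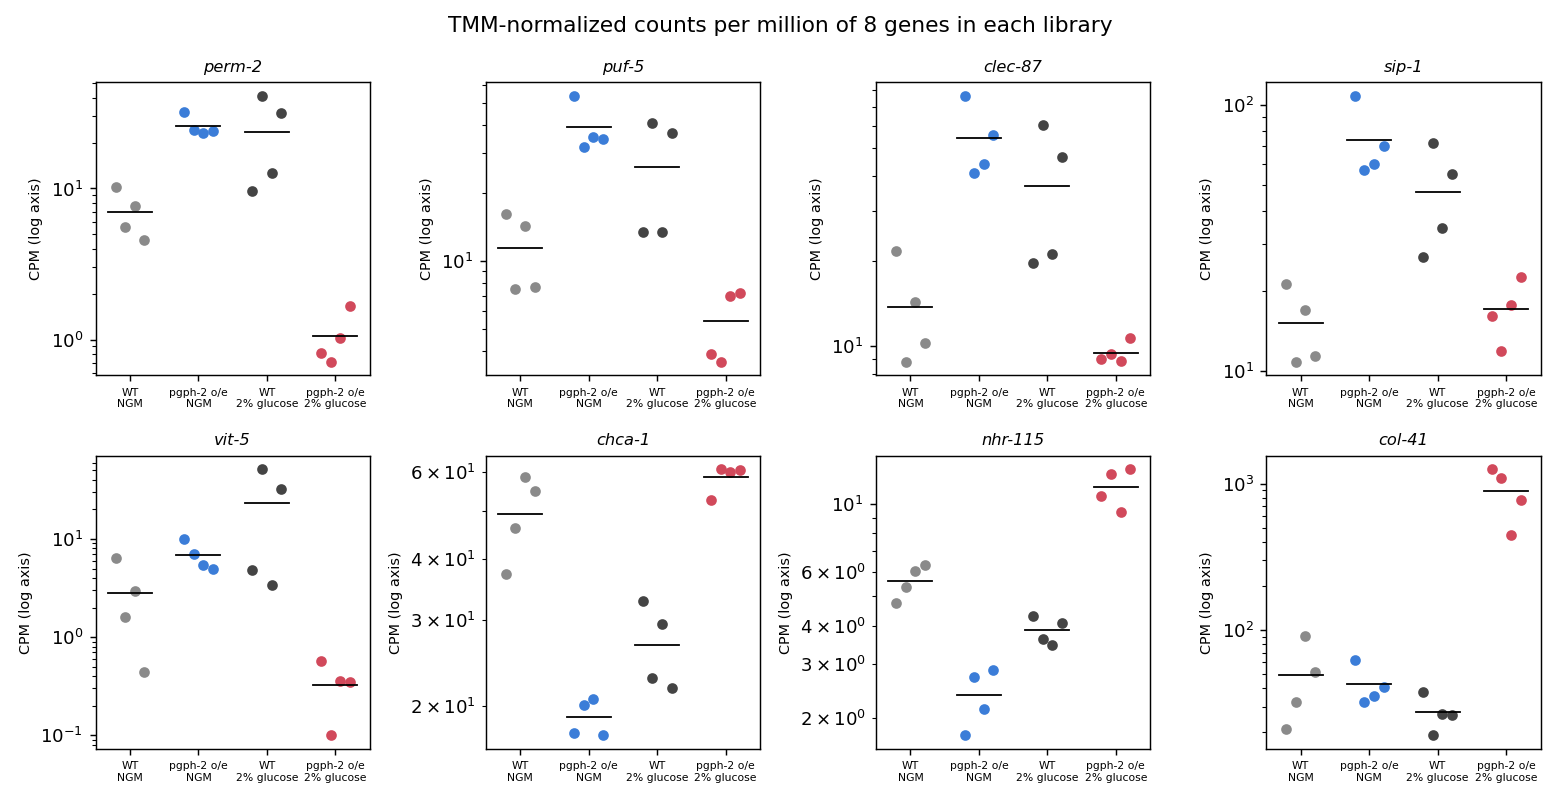
TMM-normalized CPM of 8 genes in each of the 16 libraries, on log axes that differ between panels. Points are libraries in the order of their replicate number, lines are group means, and the value of 0 for *vit-5* in 1 *pgph-2 o/e* library on glucose is drawn at the lowest position of its panel. *perm-2*, *puf-5*, *clec-87* and *sip-1* are higher in *pgph-2 o/e* on NGM and lower on glucose, *chca-1* and *nhr-115* the other way round, and *vit-5* and *col-41* differ most in *pgph-2 o/e* on glucose.

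Sperm genes were lower in *pgph-2 o/e* on glucose, and on NGM only some were higher. All 29 major sperm protein (*msp*) genes tested, which encode the cytoskeletal protein that moves worm sperm, had an interaction below 0. All 29 were lower in *pgph-2 o/e* on glucose, and 10 were higher on NGM. Their median difference was 0.99 on NGM and -2.70 on glucose. The count of 10 became 24 without WT replicate 1 on NGM and 0 without *pgph-2 o/e* replicate 1, and was 4 without both. Of the *ssp*, *ssq* and *nspd* families 24 of 25 had an interaction below 0 and 2 reversed, against 4 without WT replicate 1 on NGM, 0 without *pgph-2 o/e* replicate 1 and 1 without both. Of the *spe* genes, named for spermatogenesis defects in their mutants, 24 of 34 had an interaction below 0 and 27 were lower on glucose, while none was called on NGM. The *msp* genes are near-identical copies, so counts of single members are uncertain.

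*msp-65* shows the range within a group. It was at 24.6, 16.8, 16.4 and 15 CPM in WT on NGM and at 53.9, 32.3, 26.4 and 36 CPM in *pgph-2 o/e*, with no overlap, but its difference of 1.03 did not pass (adjusted P = 0.083). On glucose WT was at 16.1, 41.1, 20.6 and 33.8 CPM and *pgph-2 o/e* at 1.5, 0.298, 3.37 and 3.38 CPM, a difference of -3.67 (adjusted P = 8.1e-06). Families were also formed from the protein domain that the deposited table names for each gene. The Motile_Sperm domain had 86 of 97 genes with an interaction below 0, the WSN domain 33 of 41, protein tyrosine phosphatases 67 of 89 and metallophosphatases 36 of 65. Sperm of *C. elegans* are known to be rich in phosphatases, and *gsp-3*, a sperm phosphatase gene, had an interaction of -2.95 (adjusted P = 2.76e-05).

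The germ line itself changed far less. Of 32 genes of germline stem cells, P granules and meiosis, 3 had an interaction below 0 (*deps-1*, *gld-3* and *spo-11*), 0 above 0, and none was called for the genotype on either medium. The list's median interaction was -0.48, with 30 of its 32 values below 0. The mean log2 CPM of these genes lay between 4.51 and 4.70 in the *pgph-2 o/e* glucose libraries and between 4.76 and 5.13 in the other 12 libraries. *fog-1* and *fog-3*, which direct germ cells to become sperm, had interactions above 0, of 1.14 and 1.43. They were the 2 called above 0 among 13 genes of germline sex and sperm fate, of which 3 were below 0 (*gsp-3*, *gsp-4* and *fem-3*), with a median of -0.19.

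Yolk genes were lowest in *pgph-2 o/e* on glucose. All 6 vitellogenins had an interaction below 0, and 5 were down on glucose, but none was called on NGM, so none passed as a reversal, and 1 did without WT replicate 1 on NGM. Their median was 0.77 on NGM and -3.68 on glucose. *vit-2* was at 166, 114, 114 and 80.7 CPM in WT and 274, 210, 192 and 204 CPM in *pgph-2 o/e* on NGM, with no overlap and a difference of 0.89 that did not pass (adjusted P = 0.152). With glucose, WT was at 70, 341, 75.6 and 241 CPM, *pgph-2 o/e* at 12.5, 12.3, 19.3 and 22.7 CPM, again with no overlap. *vit-6* (-3.89), *vit-3* (-5.04), *vit-4* (-4.65) and *vit-5* (-7.35) had interactions of similar or larger size, and *vit-1* the smallest, -1.11. *vit-5* had 24 counts in all in the 4 *pgph-2 o/e* glucose libraries against 1897 in WT, of which WT replicate 2 held 1116. *vit-3*, *vit-4* and *vit-5* are near-identical, and reads may be split among them.

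Adult stage cuticle genes moved with the germ cell and yolk genes. Of 6 genes known for their adult cuticle expression, 5 had an interaction below 0 and all 5 were down on glucose, while 0 were called on NGM. The median was 0.13 on NGM and -3.78 on glucose. *bli-1*, a collagen of the struts of the adult cuticle, was at 567 to 1090 CPM in WT and 825 to 942 CPM in *pgph-2 o/e* on NGM. On glucose WT was at 649 to 828 CPM, and *pgph-2 o/e* lay below it at 91.9 to 192 CPM. *col-19*, the usual marker of the adult cuticle, had an interaction of -5.77 (SE 0.72, adjusted P = 2.43e-05). *col-7* had 3 counts in the 4 *pgph-2 o/e* glucose libraries and 1199 in WT, a ratio of 367 (95% exact interval for counting error 125 to 1780). *rol-6* had an interaction of -0.89 and did not reach the size limit. The mean log2 CPM of the 6 genes was 2.77 to 3.45 in *pgph-2 o/e* on glucose and 5.18 to 7.32 in the other libraries, and the part of developmental age in the sperm, oocyte and yolk results was not tested.

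**Figure D3:**
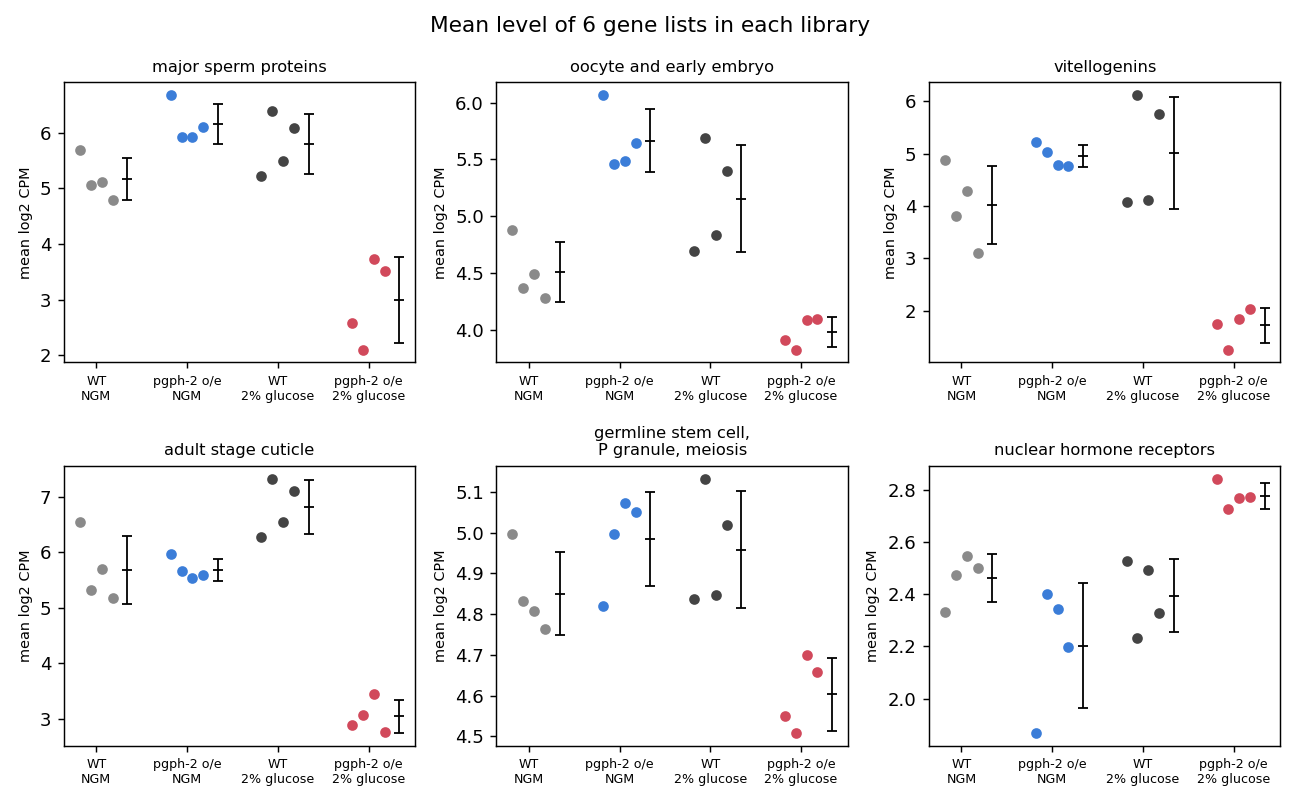
Mean log2 CPM of the tested genes of 6 lists in each library. Points are the 4 libraries of a group, and the bars to their right give the mean and SD (n = 4). In *pgph-2 o/e* on glucose, the sperm, oocyte, yolk, adult cuticle and germline lists lie below all other libraries and the nuclear hormone receptors above them; the germline axis spans under 1 unit, and that of the sperm genes over 4.

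Of the 95 genes that were up on NGM and down on glucose, 39 were on any of the lists and 50 had no protein domain named. A mean of 5 CPM was reached by 61 of them. The functions named here thus do not cover most of the 95. Outside the sperm and oocyte lists they included 4 C-type lectins (*clec-70*, *clec-87*, *clec-88* and *clec-91*) and a small heat shock protein (*sip-1*). A glycogenin (*gyg-2*), an aspartic protease (*asp-12*) and the hedgehog-related gene *wrt-4* were also among them. *sip-1*, which is known to be expressed in oocytes and embryos, was at 21.2, 10.8, 17 and 11.3 CPM in WT and 109, 56.9, 59.9 and 70.2 CPM in *pgph-2 o/e* on NGM. With glucose the WT values were 26.7, 71.7, 34.4 and 55 CPM, and those of *pgph-2 o/e* were 16.1, 11.9, 17.7 and 22.6 CPM. The interaction was -3.75 (SE 0.43, adjusted P = 1.51e-05), and the genotypes did not overlap on either medium. *clec-87* (chromosome I, 10184244 to 10185468) had differences of 1.97 and -1.96 and an interaction of -3.93 (adjusted P = 2.27e-05). Among reversing genes averaging 5 CPM or more, *C36E6.8* (-5.24) and *T01C3.3* (-4.28), which have no domain in the table, and *Y59E9AR.1* (-4.26), which has a Motile_Sperm domain, were among the 6 with the largest interactions.

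*asp-12* and *clec-70* were the only genes of the 95 with values above 0 for glucose in both genotypes. *asp-12* was at 24.5 to 61.4 CPM in WT and 84.4 to 127 CPM in *pgph-2 o/e* on NGM. The ranges on glucose were 611 to 710 CPM and 154 to 240 CPM. Glucose raised *asp-12* in both genotypes, by 3.87 on the log2 scale in WT and by 1.02 in the overexpressing animals, while the 95 reversing genes had medians of 0.91 and -2.51. The interaction of *asp-12* was -2.85 (adjusted P = 1.23e-05).

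Of the 17 genes that were down on NGM and up on glucose, 5 were on any of the lists. *nspb-2*, *nspb-1* and *nspb-8* share a family name that no list covers. Their interactions were 5.41, 4.63 and 3.87, at low means of 0.779, 1.31 and 3.23 CPM. Of the 17, 8 reached a mean of 5 CPM, none was on the sperm or oocyte lists, and 11 had no domain named in the table. Those with known products or a named domain included the nuclear hormone receptor gene *nhr-115*, the ammonium transporter gene *amt-1*, the lipase gene *lips-17*, the astacin metalloprotease gene *nas-1*, the homeobox gene *vab-7*, the antimicrobial peptide gene *nlp-29* and *pqn-37*, of a family with prion-like stretches, as well as *cyts-1* and the tyrosine kinase domain gene *Y50D4B.6*. *chca-1* (chromosome IV, 9651426 to 9652484) was at 37.2, 46.3, 58.8 and 54.9 CPM in WT and 17.6, 20.1, 20.7 and 17.4 CPM in *pgph-2 o/e* on NGM. Its values on glucose were 32.8, 22.8, 29.4 and 21.7 CPM in WT against 52.8, 60.9, 60.1 and 60.8 CPM with the transgene. The genotypes did not overlap on either medium, with an interaction of 2.51 (SE 0.21, adjusted P = 3.87e-06).

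*nhr-115* (chromosome V, 2288487 to 2294798) was lower in *pgph-2 o/e* on NGM, at 1.76 to 2.87 against 4.74 to 6.3 CPM in WT. It was higher on glucose, at 9.39 to 12.9 against 3.46 to 4.3 CPM. Its interaction was 2.78 (SE 0.25, adjusted P = 4.17e-06). *B0205.13*, a gene of unnamed function, was at 9.7 to 30.8 CPM in WT and 4.66 to 9.13 CPM in *pgph-2 o/e* on NGM, and at 14.9 to 22.6 and 65 to 97.6 CPM on glucose, with an interaction of 3.62. *amt-1* (3.20), *K02E7.6* (3.17) and *pqn-37* (3.05) had interactions of like size at lower levels. For *pqn-37*, the NGM libraries of the genotypes overlapped.

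Several functions had more calls above 0 than below, with few or no reversals. Of all genes tested, 6.27% had an interaction above 0 and 14.2% below. Among 197 nuclear hormone receptor genes, a large family of ligand-regulated transcription factors, 32 had an interaction above 0 and 1 below. Their median was -0.24 on NGM and 0.37 on glucose, and 12 were up on glucose. In *pgph-2 o/e* on glucose the family's mean log2 CPM was 2.73 to 2.84, and in the other groups 1.87 to 2.55. UDP-glucuronosyl and glutathione transferases, enzymes of detoxification, had 11 of 103 above 0 and 0 below, with *ugt-19* at 2.52 (adjusted P = 4.25e-05). Cytochrome P450 genes were split, with 12 of 65 above and 11 below, among them *cyp-33C8* at 3.50 and *cyp-35A3* at -1.70. The 11 below lie near the share of all genes. The *abu* and *pqn* genes had 15 of 60 above 0, with *abu-6* at 3.13, and 5 below, with *abu-12* at -1.54. Of 12 genes of pharynx muscle and glands 3 were above 0, among them *marg-1* (2.55), and none below. *myo-2*, whose promoter drives the marker in the transgene, was at 1.00 on the log2 scale and just under the size limit (adjusted P = 0.00533). Of 18 *pals* genes, of the response to intracellular infection, 5 were above 0, among them *pals-23* (1.14), and none below.

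Cuticle collagens split in both directions. The counts in each list stand beside 6.27% of all genes tested with an interaction above 0 and 14.2% below. Of 126 *col* genes, 36 had an interaction above 0 and 44 below, and on glucose 36 were up and 44 down, while on NGM 4 were down and none up. Without WT replicate 1 on NGM, 14 were up on NGM and 12 of the list reversed from up to down, and without replicate 1 of both genotypes 2 were up, 12 were down and 7 reversed from down to up. *col-41* (chromosome X, 15175039 to 15176481) had the largest interaction above 0 among genes averaging 5 CPM or more. It was at 21, 32, 91.2 and 51.5 CPM in WT and 62.7, 32, 35.5 and 40.5 CPM in *pgph-2 o/e* on NGM, where the groups overlapped. On glucose WT stayed at 37.6, 19.1, 26.6 and 26.2 CPM while *pgph-2 o/e* was at 1251, 1091, 443 and 768 CPM, with no overlap. The interaction was 5.22 (SE 0.57, adjusted P = 1.23e-05). *dpy-1*, a gene needed for body shape, followed at 4.54 and *col-54* at 4.37, while *col-60* had -6.68. Of 21 named body shape and strut collagens 10 were below 0, with *bli-6* lowest at -4.46, and none above. The hedgehog-related and patched-related genes, many of which are expressed in step with the molts, had 13 of 66 above 0, led by *grl-4* (3.61), and 20 below. Of 53 molting, astacin and peroxidase genes 11 were above, among them *skpo-3* (2.79), and 7 below, among them *mlt-10* (-1.87). The 7 below lie near the share of all genes. Among genes listed by name as antimicrobial peptides, saposins and thaumatins, 20 of 68 were above, with *fipr-3* at 3.76. The 8 below lie near the share of all genes. They include *cnp-2* (-4.20), which is on the list by its name and may not encode such a peptide. In that list 1 gene reversed from down to up, against 8 without WT replicate 1 on NGM and 6 without replicate 1 of both genotypes.

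**Figure D4:**
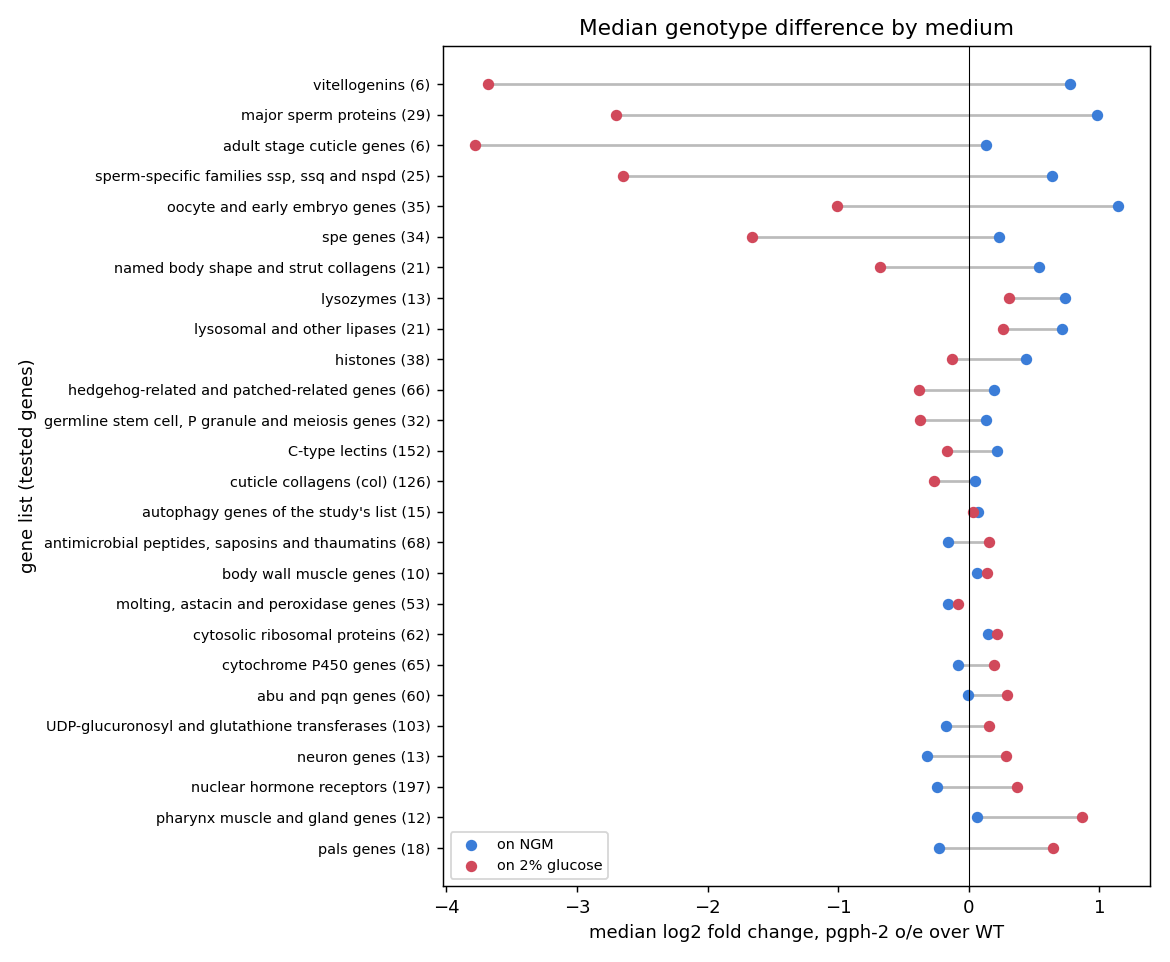
Median log2 fold change of *pgph-2 o/e* over WT for 26 gene lists, on NGM (blue) and on 2% glucose (red), with the number of tested genes in parentheses and lists ordered by their median interaction. The vitellogenins, sperm, oocyte and body shape collagen lists lie above 0 on NGM and below 0 on glucose, the *pals*, neuron and nuclear hormone receptor lists the other way round, and the autophagy genes stay near 0.

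Lectins and lipases had genotype differences that were mostly in the same direction on both media or limited to one. Of 152 C-type lectins, proteins with roles in immunity, 28 had an interaction below 0 and 5 above. Over all genes tested the shares were 14.2% and 6.27%. Of the lectins 12 were up on both media, 25 down on both and 4 reversed from up to down. The shares of all genes in these 3 classes were 0.386%, 1.09% and 0.601%. Of 21 lipase genes 4 had an interaction below 0 and 2 above. For the genotype 6 were up on NGM and 5 on glucose, 3 of them on both, while *lips-17* reversed. *lipl-1*, a lysosomal lipase induced by fasting, was at 0.917 to 1.91 CPM in WT and 10.7 to 17.3 CPM in *pgph-2 o/e* on NGM. With glucose the ranges were 1.79 to 3.41 and 2.66 to 4.23 CPM, where the groups overlapped. Its difference of 3.52 on NGM (adjusted P = 1.34e-07) was 0.32 on glucose (adjusted P = 0.336), and its interaction was -3.20 (adjusted P = 1.33e-05). *lipl-2* and *lipl-3* were also called on NGM alone, with interactions of -1.71 and -2.30. Among 13 lysozymes 3 had an interaction below 0, but 5 without WT replicate 1 on NGM, 0 without *pgph-2 o/e* replicate 1 and 1 without both. Among the 3 was *lys-5* (-1.09), which was under the size limit, at -0.93 and -0.97, without *pgph-2 o/e* replicate 1 or 4 on NGM.

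In central metabolism, calls in each list are read against the 14.2% of all genes tested with an interaction below 0 and the 6.27% above. Of 27 genes of glycolysis, gluconeogenesis and the pentose phosphate path 4 were below 0, with *pck-3*, a phosphoenolpyruvate carboxykinase gene, at -2.64. Of 61 genes of fatty acid activation and beta-oxidation 9 were below 0, with *acdh-8* at -2.65, and 2 above. *acdh-2*, an acyl-CoA dehydrogenase gene, was at 59.7 to 126 CPM in WT on NGM and at 17.8 to 42.8 CPM in the other 3 groups. Its interaction was 1.72 (adjusted P = 0.000345). *sbp-1*, the worm SREBP that regulates fat synthesis, had an interaction of 1.01 (adjusted P = 0.000245), close to the size limit. Of 16 fatty acid desaturases and elongases 3 were below 0 (*elo-4*, *elo-7* and *elo-8*), and none above. Of the 17 genes of glycerol and glycerol-3-phosphate enzymes and channels, 1 passed, the aquaporin gene *aqp-8* at 1.23. Of 42 V-ATPase and lysosomal protease genes 7 were below 0, and none above. None of 15 autophagy genes was called for the interaction or for the genotype on either medium, and none of 10 body wall muscle genes or 13 neuron genes. The neuron list had a median of -0.32 on NGM and 0.29 on glucose, and the muscle list 0.06 and 0.14.

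The genes of the interaction were spread unevenly over the chromosomes. On chromosome X, 6.88% of the genes tested had an interaction below 0 and 8.97% above. On chromosome IV the shares were 19.5% and 5.47%, on II 16.5% and 4.94%, and on V 12.6% and 10.4%. They were 16.4% and 2.99% on I, and 12% and 4.28% on III. Genes of sperm are known to be sparse on the X chromosome of *C. elegans*. The part of sperm genes in these shares was not tested. Among the 95 genes up on NGM and down on glucose, 31 were on chromosome IV and 8 on X. Of all 15816 genes tested, 2688 were on IV and 2208 on X.

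The interaction was not the same in animals without *hlh-30*. Those 16 libraries had *hlh-30* at 40.4 to 81.2 CPM, against 85.5 to 154 CPM in the 16 with the gene intact. The *pgph-2* medians of animals without and with the transgene were 37.5 and 64.7 CPM on NGM and 66.3 and 124 CPM on glucose with *hlh-30* intact, and 40.4 and 130 CPM and 36.6 and 84.2 CPM in the mutants. The part of these unlike *pgph-2* levels in the differences between backgrounds was not tested. In the *hlh-30* mutants 25 genes had an interaction above 0 and 104 below. With all 32 libraries in the fit, the interaction with *hlh-30* intact was above that in the mutants for 1450 of 16408 genes (8.84%) and below it for 2371 (14.5%). All 29 *msp* genes, all 6 vitellogenins and 32 of 35 oocyte genes were among the latter. The median interaction of the *msp* genes was -3.64 with *hlh-30* and 1.52 without, that of the vitellogenins -4.49 and 2.45, and that of the oocyte genes -2.02 and 0.67. The 25 genes called above 0 in the mutants are fewer than the 29 *msp* genes alone. The medians above 0 there thus rest largely on values that were not called.

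Of the 95 genes that reversed from up on NGM to down on glucose, 88 had a lower interaction than in the mutants, and all 17 that reversed the other way had a higher one. These genes were chosen by opposite calls in the libraries with *hlh-30* intact, which also enter this difference. The counts are therefore largely set by that choice. The same holds for *perm-2* and *chca-1*, which were picked from among them. *perm-2* had an interaction of 2.12 without *hlh-30* (difference -8.46, adjusted P = 2.54e-05) and *chca-1* one of -0.19 (difference 2.71, adjusted P = 6.92e-06). Nuclear hormone receptors differed upwards in 36 cases and downwards in 4, with medians of 0.60 and -0.07. None of the 15 autophagy genes differed.

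**Figure D5:**
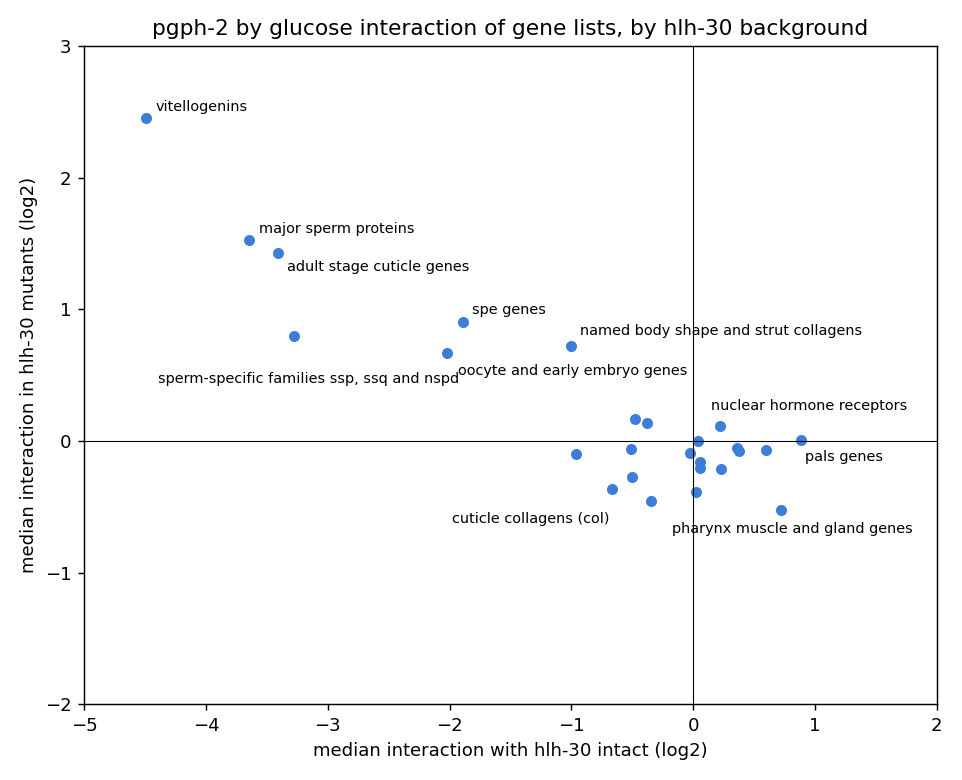
Median *pgph-2* by glucose interaction (log2) of the 26 lists with *hlh-30* intact on the horizontal axis and in *hlh-30* mutants on the vertical axis. The 2 axes share no library. The vitellogenins (-4.49 and 2.45) and the sperm, oocyte and adult cuticle lists are below 0 on the horizontal axis and above 0 on the vertical one, and most other lists lie near 0 on both. In the *hlh-30* mutants only 25 genes in all were called above 0.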

How the data were processed

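RNA-seq libraries of whole *C. elegans* were compared. Poly-T selected RNA was sequenced, reads were aligned with Hisat2, and the authors deposited raw counts per gene from featureCounts 1.5.0-p3 on WBcel235, per the submitters' processing notes. The counts were neither normalized nor filtered. Strand and multi-mapping settings are not given in the sources used here, so overlapping genes and near-identical copies are uncertain. Of 46589 gene IDs, 45305 were named from a RefSeq table, 23 from Ensembl, and 1261 kept their ID. The deposited domain column was used as given.

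The analysis used edgeR 4.0.16 under R 4.3.3, with TMM factors, filterByExpr (count 10, total 15) and quasi-likelihood F tests on the group means of 16 libraries. P values were adjusted by Benjamini-Hochberg over all genes tested, and a call required 0.05 or less together with a log2 value of 1 or more in size. Standard errors are those that the F statistic implies. Log2 CPM had a prior count of 2. The test was tried on simulated data. The difference from *hlh-30* mutants was fitted on 32 libraries.

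Alternatives were DESeq2 1.42.0, its size factors, no filter and at least 10 counts in every library, a replicate block, each library left out, all 32 libraries in one fit, the adjusted P alone, each medium on its own, and a sperm gene covariate. Leaving out replicate 1 of both genotypes on NGM was added after the values were seen. Replicate numbers did not pair the libraries: 24 correlations of deviations between same-numbered libraries ranged from -0.36 to 0.05. The labels do not say whether replicates came from separate cultures, so P values measure the spread between these libraries.

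The comparison and the gene lists were chosen with earlier results of these data known, and the lists are described by counts and medians without a test. Named were *pgph-2* and *hlh-30*, and, at a mean of at least 5 CPM, the 4 largest interactions and the 6 largest reversals in each direction and the leading called members of each list with 3 or more calls, and all members of lists of up to 6 genes. Other genes in the text were picked after their values were seen.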

Additional observations from a re-analysis of the deposited data

Results flagged for a closer look

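The genotype difference differed between the media for 992 genes with an interaction above 0 and 2239 below 0, and the interaction differed between *hlh-30* backgrounds for 1450 genes above and 2371 below, each by the test of the difference itself.

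Groups of 4 libraries were examined for a library far from the rest, by Dixon's ratio of gap to range. Of 448 groups, 12 passed the 95% limit, where chance alone flags about 1 in 20. The 12 are fewer than that share, so any of the libraries listed below may be a chance flag. In *pgph-2 o/e* on NGM, replicate 1 was high for *perm-2* (32.2 CPM, others 23.2 to 24.5), *puf-5* (54 CPM, others 32 to 35.4) and *idpp-12* (2.56 CPM, others 2.1 to 2.14), and low for the cytochrome P450 list (mean log2 CPM 1.84, others 2.19 to 2.27). Replicate 2 of the same group was high for the hedgehog-related list (4.43, others 4.35).

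In *pgph-2 o/e* on glucose, replicate 1 was low for *chca-1* (52.8 CPM, others 60.1 to 60.9), replicate 2 high for *skpo-3* (130 CPM, others 98.6 to 104) and replicate 3 high for *bli-1* (192 CPM, others 91.9 to 99.1). In WT on NGM, replicate 3 was high for *abu-6* (13.9 CPM, others 2.34 to 3.51) and replicate 1 for *his-70* (20.5 CPM, others 11.5 to 12.9). In WT on glucose, replicate 1 was high for *clec-265* (32.3 CPM, others 24.7 to 25.4) and replicate 2 low for the pharynx list (mean log2 CPM 4.84, others 4.90 to 4.91).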

How the results depend on the processing

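The counts of 992 interaction genes above 0 and 2239 below stayed within 1.5 times under DESeq2, its size factors, both filters, the replicate block and all 32 libraries in one fit. With the adjusted P alone, 2245 were above 0, and 295 and 148 genes reversed. The 95 genes up on NGM and down on glucose became 59 with at least 10 counts in every library and 57 with the replicate block (907 and 2144 interaction calls shared with the fit without it), and the 17 in the other direction became 9 with each medium fitted on its own. With libraries left out in turn, the 4 counts ranged from 833 to 1098, 2098 to 2397, 44 to 212 and 6 to 49, and 29 of the 95 and 4 of the 17 were called every time. Without replicate 1 of both genotypes on NGM, 47 genes went from down to up. The 1450 and 2371 genes whose interaction differed with *hlh-30* became 1517 and 2498 under DESeq2 and 1439 and 2388 with the replicate block. With the sperm gene mean as a covariate all 4 counts were 0. The sign turned for *pgph-2* (1.02), *hlh-30* (-0.12), *vit-5* (2.17), *vit-3* (0.12), *acdh-8* (0.13), *ins-37* (0.71), *his-70* (0.34) and *col-62* (0.46). It also turned for the *spe* median (0.03) and the histone median (0.06), while *vit-1* rounded to 0. No gene was past the threshold, and the cause was not tested. With 87.5% of the variance of that mean between the 4 groups, the signs in this fit are poorly determined. The median standard error was 0.56 with the mean and 0.27 without it. The *pgph-2* interaction of -0.03 ranged from -0.12 to 0.12 with libraries left out and was 0.04 without replicate 1 of both genotypes on NGM. Genes at few counts in *pgph-2 o/e* on glucose, such as *col-7*, are limited by depth.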

Other observations

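Male-specific genes stood lower in *pgph-2 o/e* on both media. Of 7 such genes tested, 4 were down on NGM and 3 on glucose, and none was called for the interaction. The median was -1.34 on NGM and -0.47 on glucose, and that of the interaction was 0.85. Their mean log2 CPM was -0.17 to 0.09 in WT on NGM and -1.88 to -1.17 in *pgph-2 o/e*, and -0.26 to 0.43 and -1.03 to -0.76 on glucose, so these genes were at low levels in all groups.

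Genes of the intestine stood slightly higher in *pgph-2 o/e* on both media, with medians of 0.21 on NGM and 0.35 on glucose. Of 11 tested, 1 was called on NGM and none on glucose, and 1 had an interaction below 0, the cysteine protease gene *cpr-1* at -1.21, and the mean log2 CPM was 7.18 to 7.43 in WT and 7.51 to 7.95 in *pgph-2 o/e* on NGM, and 7.13 to 7.29 and 7.56 to 7.65 on glucose. Of 62 cytosolic ribosomal protein genes 1 had an interaction below 0, *rpl-42* at -1.89. Among 38 histone genes 6 were below 0 and 1, *his-32*, above at 2.52. Of all genes tested 14.2% were below 0 and 6.27% above, so the histone count below 0 lies near that of any list.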
